A study of Homo sapiens with 3 samples.

Results

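The APOBEC3 genes are 7 neighbouring human genes, APOBEC3A, APOBEC3B, APOBEC3C, APOBEC3D, APOBEC3F, APOBEC3G and APOBEC3H. All 7 were found by name among the 23284 genes that the deposited tables list for each library. They were followed by RNA-seq in 293T, a line derived from human embryonic kidney, transfected with dCas9-VP64, in which a nuclease-dead Cas9 carries the VP64 activation domain to a guided site. The 3 conditions were dCas9-VP64 with mock, the parental guide vector, dCas9-VP64 with sgL1ASP #1 and dCas9-VP64 with sgL1ASP #3, whose guides were designed against the antisense promoter in the 5′ end of the retrotransposon LINE-1 (L1). All libraries therefore carry dCas9-VP64, and cells without it were not sequenced. Expression was transient, so untransfected cells may contribute RNA. Each condition has 1 library, so replicate spread is unknown, nothing was tested and the differences below are descriptions of these libraries.

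APOBEC3 enzymes deaminate cytosine to uracil in single-stranded DNA and restrict retroviruses and retrotransposons. Several members, among them APOBEC3A, APOBEC3B, APOBEC3C and APOBEC3F, are known to lower L1 retrotransposition in cell culture, and APOBEC3G and APOBEC3F are best known for blocking HIV that lacks the Vif protein. Most members are high in blood cells and several respond to interferon, while APOBEC3B is nuclear and is often high in proliferating and tumor cells. The question was at what level each member is expressed in these cells and whether the level differs when the L1 antisense promoter is targeted.

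The members share one catalytic fold. The coding sequence of the zinc-binding motif occurs a single time in APOBEC3A, APOBEC3C and APOBEC3H, whereas APOBEC3B, APOBEC3D, APOBEC3F and APOBEC3G hold 2 copies each. The 30 coding bases around the cysteine codons of the last copy are shown 5′ to 3′ because such similar stretches limit how short reads can be assigned to one gene. They were read from the GENCODE 44 transcripts on GRCh37, and capitals mark bases that differ from APOBEC3C.
APOBEC3A: tcCtggagcccCtgcTTCTCctgGgGCTgT
APOBEC3B: tcCtggagcccCtgcTTCTCctgGgGCTgT
APOBEC3C: tcttggagcccttgcccagactgtgcaggg
APOBEC3D: tcttggagcccttgcccagaGtgtgcaggg
APOBEC3F: tcttggagcccttgcccagaGtgtgcaggg
APOBEC3G: tcCtggagcccCtgcTTCAGctgtgcCCAg
APOBEC3H: AcGtggagcccCtgcTcCTCctgtgcCTgg

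The stretches of APOBEC3A and APOBEC3B were identical, as were those of APOBEC3D and APOBEC3F, which differed from APOBEC3C at 1 base. All lie within 1 coding exon on the plus strand of chromosome 22. In exon 3 are those of APOBEC3A (chr22:39357506-39357535), APOBEC3C (chr22:39413873-39413902) and APOBEC3H (chr22:39497332-39497361). In exon 6 are those of APOBEC3B (chr22:39387451-39387480), APOBEC3D (chr22:39427801-39427830), APOBEC3F (chr22:39448181-39448210) and APOBEC3G (chr22:39482398-39482427). Over the best local alignment of the coding sequences, APOBEC3A and APOBEC3B were 94.6% identical across 571 bases. APOBEC3C was 90.5% identical to APOBEC3D and 90.3% to APOBEC3F, each across 557 bases. APOBEC3H was the most distant member, at 59.8% to 64.6%. Of all windows of the read length, 75 bases, in the canonical transcript, 26.8% in APOBEC3B were found unchanged in another member, as were 18.5% in APOBEC3A, 11.6% in APOBEC3D, 9.66% in APOBEC3G and 7.98% in APOBEC3F. This share was 0.272% in APOBEC3C and 0% in APOBEC3H. In APOBEC3D the share was 85.7% when all annotated genes were counted, among them a readthrough gene that joins 17 bases of the first exon of APOBEC3C, shorter than a read, to exons within APOBEC3D. Those exons lie at positions inside APOBEC3D, and whether the authors' annotation held the readthrough gene is unknown. By the windows shared with other members, assignment is least certain for APOBEC3B and APOBEC3A, apart from the number of reads. APOBEC3D, APOBEC3G and APOBEC3F follow, and APOBEC3C and APOBEC3H share the fewest windows. How the authors assigned reads that fit several genes is not given in the sources used here.

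The genes stand in a head-to-tail row on the plus strand of chromosome 22, over 151.3 kb from 39348746 to 39500072 in GRCh37, the sequence also called hg19. CBX6 lies 80.5 kb before the row and CBX7 begins 16.1 kb after it. Both encode chromobox proteins of Polycomb complexes. APOBEC3B spans 39378352 to 39388809, APOBEC3C 39410262 to 39416357, APOBEC3D 39417118 to 39429282 and APOBEC3F 39436609 to 39451977. Within the row the gaps range from 0.760 kb, between APOBEC3C and APOBEC3D, to 21.5 kb, between APOBEC3B and APOBEC3C.

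APOBEC3C was the most abundant member and APOBEC3B came second, and together they made up 84.3% of the summed APOBEC3 FPKM (mapped fragments scaled to exon length and to library size) in mock. The share was 83.6% with sgL1ASP #1 and 82.2% with sgL1ASP #3. Since FPKM is scaled per length, these levels can be set beside each other. In bulk RNA, fewer cells with a transcript and less transcript per cell cannot be told apart.

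**Figure D1:**
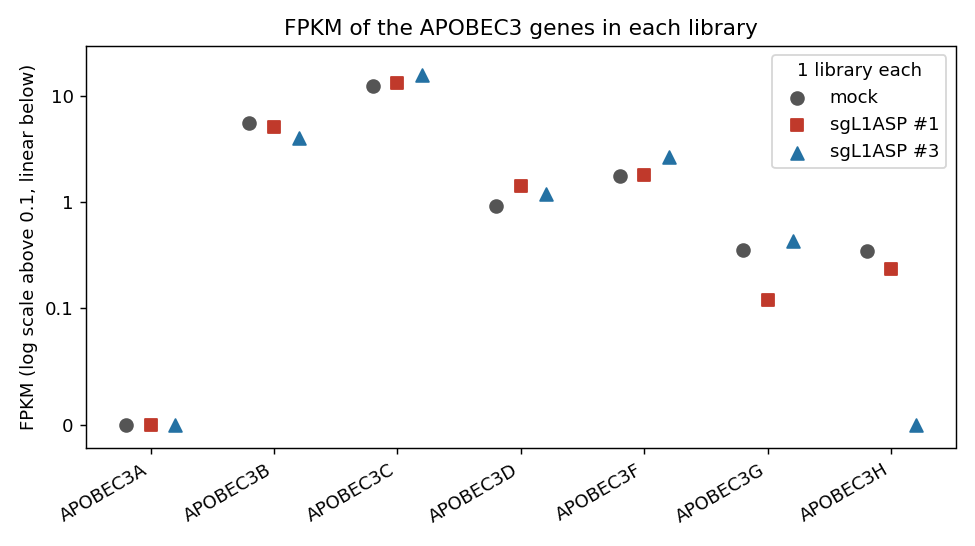
FPKM of each APOBEC3 gene in the mock, sgL1ASP #1 and sgL1ASP #3 libraries, 1 point per library, on a scale that is logarithmic above 0.1 and linear below. APOBEC3C lies highest in all 3 libraries, APOBEC3B next, and APOBEC3A at 0.

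APOBEC3C, a single-domain enzyme found in nucleus and cytoplasm, had FPKM 12.5 in mock, 13.3 with sgL1ASP #1 and 15.8 with sgL1ASP #3, which places its mean at the 74.3 percentile of all listed genes. APOBEC3B, the nuclear double-domain enzyme, had FPKM 5.59 in mock, 5.08 with sgL1ASP #1 and 4.05 with sgL1ASP #3, with a mean at the 59.0 percentile. With both guides APOBEC3C was listed above mock and APOBEC3B below it, but APOBEC3C with sgL1ASP #1 lay level with mock, at a log2 ratio of -0.0033, when each library was rescaled to an FPKM sum of 1000000. The ratio of APOBEC3C to APOBEC3B FPKM was 2.23 in mock, 2.61 with sgL1ASP #1 and 3.89 with sgL1ASP #3.

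APOBEC3F, a double-domain cytoplasmic enzyme, had FPKM 1.76 in mock, 1.82 with sgL1ASP #1 and 2.68 with sgL1ASP #3. APOBEC3D, the double-domain member next to APOBEC3C, had FPKM 0.912 in mock, 1.43 with sgL1ASP #1 and 1.197 with sgL1ASP #3. The highest value of APOBEC3F was in the sgL1ASP #3 library, and that of APOBEC3D in the sgL1ASP #1 library. APOBEC3G had FPKM 0.351 in mock, 0.119 with sgL1ASP #1 and 0.423 with sgL1ASP #3. APOBEC3H, the most divergent member, had FPKM 0.340 in mock and 0.230 with sgL1ASP #1, and it is listed at 0 with sgL1ASP #3. APOBEC3A, a single-domain enzyme of myeloid cells, is listed at 0 in all 3 libraries.

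The order of the levels by mean was APOBEC3C, APOBEC3B, APOBEC3F, APOBEC3D, APOBEC3G, APOBEC3H and APOBEC3A. Across the libraries the ranges of neighbours did not overlap from APOBEC3C down to APOBEC3G. Those of APOBEC3G and APOBEC3H overlapped, and those of APOBEC3H and APOBEC3A met at 0. Along the chromosome the level peaked at APOBEC3C in the middle of the row and was under 1 FPKM at both ends.

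**Figure D2:**
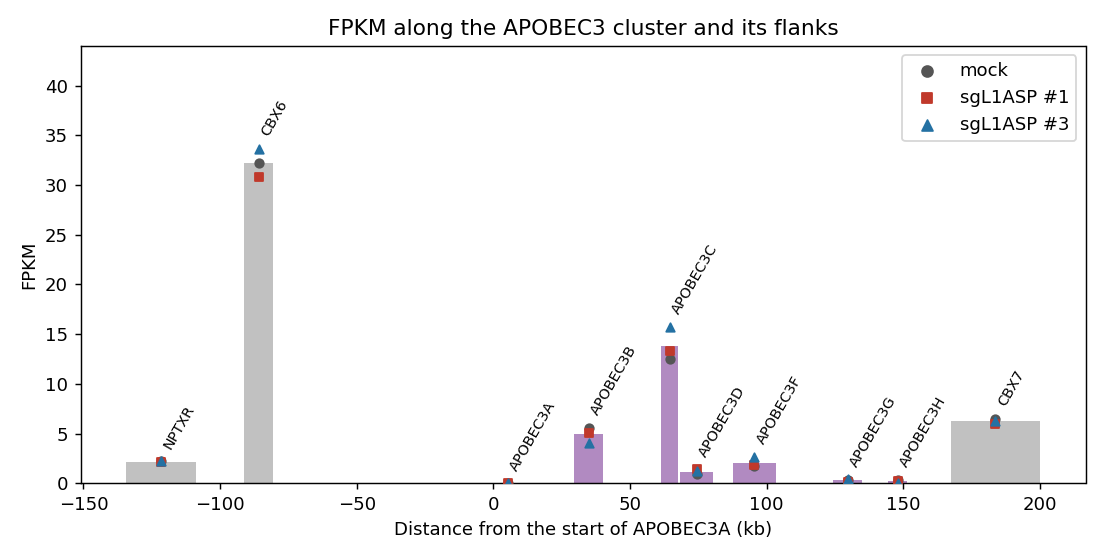
FPKM along the APOBEC3 row and its flanking genes NPTXR, CBX6 and CBX7, by distance from the start of APOBEC3A in kb. Bars span each gene and give the mean of the 3 libraries, and points give the libraries. The 7 members lie between CBX6, with a mean of 32.2, and CBX7, with a mean of 6.24.

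The read numbers behind these values can be approached from the smallest steps in FPKM. Among low genes, detected at FPKM under 0.3 in mock and in the guide library, the commonest ratio between libraries gives what 1 read is worth, which was 1.01 times its mock value with sgL1ASP #1 and 1.203 times with sgL1ASP #3. The inverse of these values was 98.7% and 83.1% of mock. It equals the relative depth only if FPKM were scaled to total reads, and the scaling between libraries is not given. Divided by these values, 4 members came out in whole numbers within a relative tolerance of 2e-05, as did 36.97% of the 10591 genes with FPKM above 0 in every library and a mean from 0.1 to 20. The lowest whole numbers were 78 in mock, 70 with sgL1ASP #1 and 47 with sgL1ASP #3 for APOBEC3B. For APOBEC3C they were 59, 62 and 62, so that the reads of APOBEC3C were equal in number with both guides while its FPKM differed. For APOBEC3D they were 11, 17 and 12, and for APOBEC3G 3, 1 and 3. The true read numbers can be a common multiple of these, and the multiple can differ between genes. APOBEC3F gave no whole numbers up to 150. APOBEC3H was 0.126% off a ratio of 3 to 2 reads between mock and sgL1ASP #1, which is outside the tolerance.

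With sgL1ASP #1 against mock, APOBEC3D was the member that stood higher by more than 1.5-fold on the log2(FPKM + 0.1) scale, which understates changes of low genes. The size of this cutoff is the study's, which applied it to sgL1ASP #3 over mock and sgL1ASP #1 over sgL1ASP #3 jointly, not to this comparison or scale. This was 1 of 7 members, beside 4.61% of all listed genes, and 1 of the 4 members with mean FPKM of at least 1, beside 1.76% of such genes. Among genes with mean FPKM from 1 to 10 the background was 2.91%. With that FPKM sum, a pseudocount of 1 or a 2-fold threshold, APOBEC3D did not pass. APOBEC3G stood lower past the same fold, 1 of 7 members beside 4.69% of all listed genes. Its lowest whole numbers are 1 with sgL1ASP #1 against 3 in mock. If these are the reads, they are at or under the 3 counts taken as the floor, so no fold is given. Of the 4 members with mean FPKM of at least 1, 0 stood lower, beside 1.79% of such genes and 3.27% of those from 1 to 10. The summed FPKM of the 7 genes was 21.4 in mock and 21.9 with sgL1ASP #1, a log2 ratio of 0.035 that was -0.059 after rescaling to the same FPKM sum.

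The FPKM ratio of APOBEC3D was 1.57, with a 95% counting interval from 0.692 to 3.70 at the lowest whole numbers. This exact Clopper-Pearson interval covers counting error only. The ratio of APOBEC3B was 0.909, with an interval from 0.649 to 1.27. That of APOBEC3C was 1.06, from 0.733 to 1.55. Each of these intervals, taken at the lowest whole numbers, included 1. The ratio of APOBEC3F was 1.03, and no interval could be given. Its log2 ratio of 0.04 became -0.047 with the same FPKM sum.

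With sgL1ASP #3 against mock, 0 of 7 members stood higher by more than 1.5-fold, beside 4.38% of all listed genes. APOBEC3H, listed at 0 in the sgL1ASP #3 library, was the 1 of 7 that stood lower, beside 5.18% of all listed genes. Its 3 reads in mock, if the nearest whole numbers are taken, are at the floor, and no fold is given. Of the 4 members with mean FPKM of at least 1, 0 stood higher, beside 1.75% of such genes and 3.09% of those with mean FPKM from 1 to 10, and 0 stood lower, beside 2.05% and 3.66%. APOBEC3F was just under the threshold, with a ratio of 1.52 and a log2 ratio of 0.58 on the pseudocount scale, and it passed with a pseudocount of 0.01. The summed FPKM was 24.1, a log2 ratio of 0.17.

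APOBEC3B had a ratio of 0.725 with sgL1ASP #3, and the counting interval went from 0.494 to 1.05. If the reads were double the lowest whole numbers the interval would go from 0.555 to 0.943, so that whether it includes 1 depends on a multiple that the FPKM alone do not give. The exon lengths behind the FPKM could limit this multiple, but the annotation the authors used is not given. APOBEC3C had a ratio of 1.26, with an interval from 0.871 to 1.84, and APOBEC3D one of 1.31, from 0.530 to 3.28. With doubled reads these would go from 0.975 to 1.64 and from 0.705 to 2.46.

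**Figure D3:**
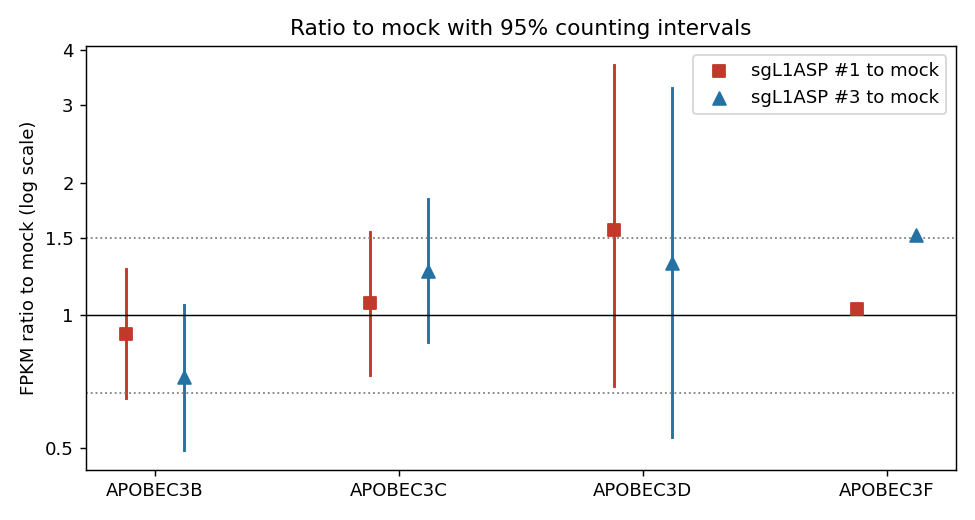
FPKM ratio to mock on a log scale for the 4 members with mean FPKM of at least 1, as points, with lines for the 95% counting intervals at the lowest whole read numbers (none for APOBEC3F). Dotted lines mark 1.5-fold in either direction, and every interval drawn includes 1.

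Between the guides, APOBEC3B was higher with sgL1ASP #1 than with sgL1ASP #3, at a ratio of 1.25 with an interval from 0.854 to 1.86. APOBEC3C was lower, at 0.842 from 0.582 to 1.22, and APOBEC3F was lower at 0.679. APOBEC3G passed 1.5-fold as lower, 1 of 7 members beside 4.62% of all listed genes, and APOBEC3H as higher, 1 of 7 beside 5.15%. The call of APOBEC3G rests on the low whole numbers given above, whose multiple is unknown. APOBEC3H gave no whole numbers within the tolerance, and its call rests on FPKM 0.230 with sgL1ASP #1 against 0 with sgL1ASP #3. None of the 4 members with mean FPKM of at least 1 passed, beside 1.96% of such genes higher and 1.82% lower, or 3.36% and 3.27% of those with mean FPKM from 1 to 10. The comparisons share libraries, so they are not independent of each other.

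**Figure D4:**
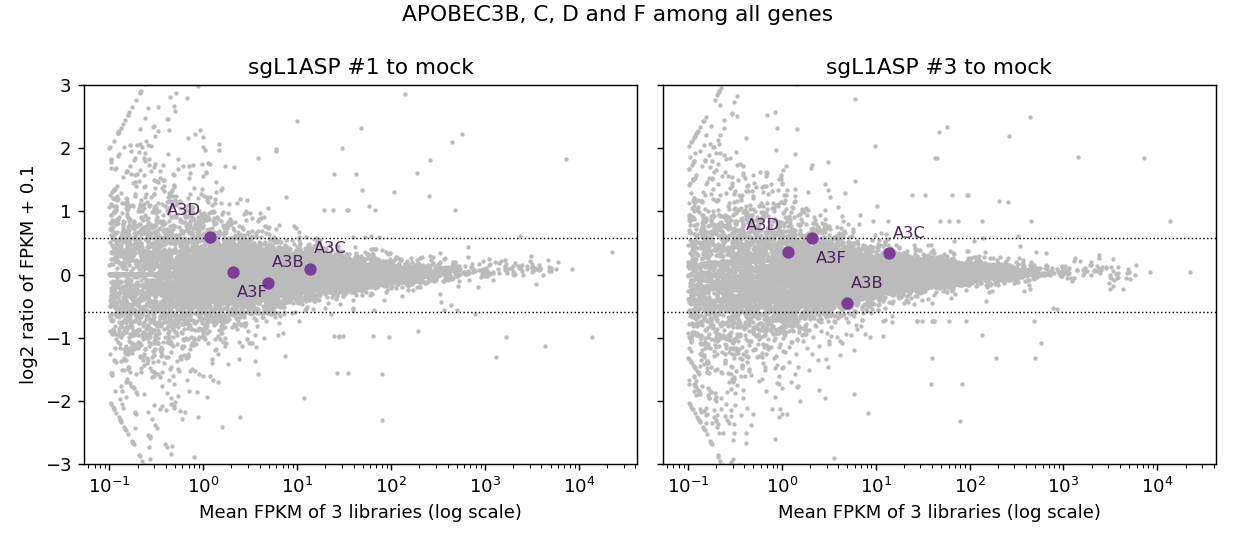
Log2 ratio to mock of FPKM + 0.1 against mean FPKM for all genes with mean FPKM of at least 0.1 (grey, points beyond 3 in either direction not drawn) and APOBEC3B, APOBEC3C, APOBEC3D and APOBEC3F (purple, A3B to A3F). Dotted lines mark 1.5-fold, and APOBEC3D with sgL1ASP #1 is the 1 purple point past them.

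The genes with the profile most like that of each member were taken by Euclidean distance over the 3 centred log2(FPKM + 0.1) values, among 12826 genes. For APOBEC3B they were FAM174B (distance 0.00038), GMDS (0.0053) and GEM (0.011), and for APOBEC3C they were C5orf30 (0.0058), ZSWIM4 (0.0065) and PCSK1N (0.0084). For APOBEC3D they were SLC9A3 (0.024), LOC100507034 (0.026) and MBLAC2 (0.035), and for APOBEC3F they were CNIH2 (0.028), LOC100506994 (0.038) and ANXA1 (0.042). With 3 libraries such closeness is common. Within a distance of 0.1 lay 148 genes for APOBEC3B, 352 for APOBEC3C, 57 for APOBEC3D and 25 for APOBEC3F.

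The genes around the row did not pass 1.5-fold wherever their mean FPKM was at least 1, which held for 10 of 11 neighbours. Their log2 changes ranged from -0.13 to 0.094 with sgL1ASP #1 and from -0.056 to 0.12 with sgL1ASP #3, with medians of -0.016 and 0.049. Over all genes at that level, 1.76% stood higher and 1.79% lower past 1.5-fold with sgL1ASP #1, and 1.75% and 2.05% with sgL1ASP #3. CBX6 had FPKM 32.2 in mock, 30.8 with sgL1ASP #1 and 33.7 with sgL1ASP #3, and CBX7 had 6.49, 5.96 and 6.28. NPTXR, a neuronal pentraxin receptor gene, had 2.19, 2.15 and 2.21. On the same side lie JOSD1, GTPBP1, SUN2 and DNAL4, with mean FPKM from 19.98 to 34.2. Beyond CBX7 lie PDGFB, a growth factor gene with mean FPKM 0.329, RPL3, a ribosomal protein gene with 2404, SYNGR1 with 51.1 and TAB1 with 27.6. PDGFB, at FPKM 0.219 in mock, 0.399 with sgL1ASP #1 and 0.369 with sgL1ASP #3, was the neighbour that passed 1.5-fold with sgL1ASP #1. This was 1 of 11 neighbours, beside 4.61% of all listed genes. The hybrid gene APOBEC3A_B and the antisense RNA gene APOBEC3B-AS1, which overlaps the end of APOBEC3B, have no entry under these names in the tables used.

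Among the other deaminase genes, 9 had mean FPKM of at least 1. APOBEC1 and ADARB2 are listed at 0 in every library, and APOBEC4 was above 0 with sgL1ASP #1 alone, at FPKM 0.0750. ADAR, which edits adenosine in double-stranded RNA, was the highest at FPKM 47.4 in mock, 50.3 with sgL1ASP #1 and 48.5 with sgL1ASP #3. DCTD, the dCMP deaminase, and ADAT3, a tRNA editing subunit, followed with means of 15.0 and 12.5. CDA, which deaminates free cytidine in nucleotide salvage, had FPKM 2.15 in mock, 0.642 with sgL1ASP #1 and 0.762 with sgL1ASP #3. It was the 1 gene of this list with mean FPKM of at least 1 past 1.5-fold, lower with both guides. At the lowest whole numbers of 17, 5 and 5 reads its ratio to mock was 0.298 with sgL1ASP #1, with an interval from 0.0859 to 0.841, and 0.354 with sgL1ASP #3, from 0.102 to 0.999. The 2 ratios share the mock library, and CDA is named because it passed the threshold. Of all genes with mean FPKM of at least 1, 1.79% stood lower past 1.5-fold with sgL1ASP #1 and 2.05% with sgL1ASP #3.

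Uracil left by deamination is removed by UNG and processed by APEX1. Of 14 uracil-handling genes with mean FPKM of at least 1, 0 passed 1.5-fold in either direction against mock. Over all genes at that level, 1.76% stood higher and 1.79% lower with sgL1ASP #1, and 1.75% and 2.05% with sgL1ASP #3. A count of 0 in a list this short lies near those shares. APEX1 had FPKM 229.2 in mock, 243.2 with sgL1ASP #1 and 246.9 with sgL1ASP #3, UNG had 102.2, 97.997 and 99.8, and MAD2L2, a subunit of a translesion polymerase, had a mean of 83.0. The median log2 change of the 14 genes was 0.066 with sgL1ASP #1 and 0.0053 with sgL1ASP #3, beside 0.00085 and 0.0015 over all 12830 genes with mean FPKM of at least 1. FAM72A, which promotes degradation of UNG, lay under that level, at FPKM 0.631, 0.813 and 1.04, and passed 1.5-fold with sgL1ASP #3. This rests on lowest whole numbers of 11 reads in mock and 15 with sgL1ASP #3, a ratio of 1.64 with an interval from 0.704 to 3.95, and it did not pass after rescaling to an FPKM sum of 1000000.

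APOBEC3B transcription is known to be held down by the DREAM complex and raised by B-MYB and by NF-kappa B signalling. Of 16 DREAM, B-MYB and E2F genes, 0 passed 1.5-fold, and their medians were -0.012 and 0.007 with the 2 guides. MYBL2, which encodes B-MYB, had FPKM 167.4 in mock, 164.5 with sgL1ASP #1 and 168.4 with sgL1ASP #3, while TFDP1 and E2F1 had means of 78.0 and 70.2. Of 9 genes, those of NF-kappa B and protein kinase C with TEAD4 added, 0 passed against mock, with medians of 0.074 and 0.039. RELA, TEAD4 and PRKCD were the highest, with means of 40.5, 26.7 and 21.5. Over all genes with mean FPKM of at least 1, 1.76% stood higher and 1.79% lower with sgL1ASP #1. With sgL1ASP #3 these shares were 1.75% and 2.05%. Counts of 0 in lists this short lie near those shares.

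Vif of HIV recruits a cellular ubiquitin ligase with CBFB and CUL5 to degrade APOBEC3 proteins. All 8 of its listed components were expressed and 0 passed, led by NEDD8, ELOB (listed as TCEB2) and ARIH2 with mean FPKM 287.9, 263.8 and 52.1. Of 9 RNA granule proteins, with which APOBEC3G and APOBEC3F associate in the cytoplasm, 0 passed either, led by PABPC1, YBX1 and EDC4 with means of 428.8, 320.1 and 47.1. Both counts of 0 lie near the shares of all genes with mean FPKM of at least 1. These were 1.76% higher and 1.79% lower with sgL1ASP #1, and 1.75% and 2.05% with sgL1ASP #3.

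Of 22 interferon-stimulated genes, 9 had mean FPKM of at least 1 and 6 are listed at 0 in every library, as are all 6 interferon genes followed. With sgL1ASP #1, 1 of the 9 stood higher past 1.5-fold and 2 lower, beside 1.76% and 1.79% of all genes at that level. With sgL1ASP #3, 1 stood higher and 0 lower, beside 1.75% and 2.05%. BST2, which tethers virions to the cell surface, had FPKM 0.781 in mock, 1.45 with sgL1ASP #1 and 1.88 with sgL1ASP #3, at lowest whole numbers of 6, 11 and 12 reads. Its ratio to mock was 1.86, with an interval from 0.630 to 6.12, and 2.41, from 0.836 to 7.82. IFI27 had FPKM 5.84, 2.85 and 4.69, and IFI6 had 7.12, 4.57 and 5.11, both small interferon-induced proteins, and these were the 2 lower genes with sgL1ASP #1. IFI27 was also lower with sgL1ASP #1 than with sgL1ASP #3 past 1.5-fold. IFITM1, STAT2 and ISG15 were the highest, with means of 39.1, 23.9 and 17.7. The median log2 change of the 9 genes was -0.059 with sgL1ASP #1 and -0.087 with sgL1ASP #3.

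The cell label was set against marker genes. Of 8 blood cell markers, 4 are listed at 0 in each library, PTPRC, CD3E, MS4A1 and LYZ. All 8 markers of the kidney line were above 0, with a summed FPKM from 966.7 to 1061.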

How the data were processed

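The authors prepared stranded mRNA libraries and sequenced 75-base single-end reads, which per the labels and methods were mapped to hg19 with TopHat2 2.0.13, Bowtie2 2.2.3 and SAMtools 0.1.19. The authors deposited 1 FPKM value per gene and library, from Cuffdiff of Cufflinks 2.2.1. The annotation and the scaling between libraries are not given in the sources used here. FPKM were used as deposited, with fold changes on log2(FPKM + 0.1) and ratios without a pseudocount. With 1 library per condition nothing was tested. The members and gene lists were chosen with earlier results of these data known. The genes named are the 7 members, all chromosome 22 neighbours, the 3 highest genes of each list, list genes with mean FPKM of at least 1 past 1.5-fold and the 3 profiles nearest to each member. APOBEC1, ADARB2, APOBEC4 and FAM72A were named after their values were seen. Some list genes are not reported here. The 7 list genes filed under older symbols were matched through RefSeq. The FPKM give whole read numbers for part of the genes only, and a common multiple stays unknown. The search for whole numbers and the 1.5-fold call were run on simulated data, where every gene held whole reads and 200 genes a 3-fold change. This checks the code and does not show how well either step works on these libraries. Sequences and positions are from GENCODE 44 on GRCh37, with coding sequences taken as the longest reading frame of each canonical transcript and zinc motifs found as histidine and glutamate followed by proline, cysteine and a further cysteine. Alternatives were pseudocounts of 0.01 and 1, 2 rescalings, a 2-fold threshold and a filter at mean FPKM 1. Python 3.11.15, NumPy 2.4.6, pandas 2.3.3, SciPy 1.17.1, Biopython 1.88 and matplotlib 3.10.9 were used.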

Additional observations from a re-analysis of the deposited data

Results flagged for a closer look

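APOBEC3G had FPKM 0.119 with sgL1ASP #1, below the 0.351 of mock, and 0.423 with sgL1ASP #3. The latter is above mock in FPKM only: the lowest whole read numbers are 3 in mock and 3 with sgL1ASP #3, where 1 read is worth 1.203 times as much, and 1 with sgL1ASP #1. If these are the reads and not a fraction of them, all are at or under the floor of 3 counts. Each guide has 1 library, and the difference between the guides was not tested.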

How the results depend on the processing

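With 1 library per condition, nothing could be left out or blocked. No paired analysis was possible because no group holds more than a single sample. A sum with the hybrid APOBEC3A_B could not be made, since no entry of that name is in the tables used. Rescaling each library to an FPKM sum of 1000000 shifted the median log2 ratio of expressed genes by -0.094 for sgL1ASP #1 and -0.12 for sgL1ASP #3. It turned the log2 ratio of the summed APOBEC3 FPKM from 0.035 to -0.059 with sgL1ASP #1, and left it above 0, at 0.051, with sgL1ASP #3.

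With sgL1ASP #1 to mock, the number of APOBEC3 genes past 1.5-fold as higher went from 1 to 0 with a pseudocount of 1, the FPKM sum of 1000000 or a 2-fold threshold, and the number lower went from 1 to 0 with a pseudocount of 1 or mean FPKM of at least 1. With sgL1ASP #3 to mock, the number higher went from 0 to 1 with a pseudocount of 0.01, and the number lower from 1 to 0 with a pseudocount of 1 or mean FPKM of at least 1. With sgL1ASP #1 to sgL1ASP #3, both numbers went from 1 to 0 with a pseudocount of 1 or mean FPKM of at least 1.

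The related lists hold 13 other deaminase, 15 uracil-handling, 8 Vif ligase and 16 DREAM, B-MYB and E2F genes. They also hold 9 genes of the NF-kappa B list, 9 RNA granule, 22 interferon-stimulated, 6 interferon and 11 neighbouring genes. Counts below run over all these lists, and the shares of all listed genes are at the main setting. At that setting the counts lie near or under those shares and are not read as a result. With sgL1ASP #1 to mock, the number higher over these lists was 3, beside 4.61% of all listed genes. It was 5 at pseudocount 0.01, 0 at pseudocount 1 or a 2-fold threshold and 1 with mean FPKM of at least 1. The number lower was 4, beside 4.69%. It was 6 at pseudocount 0.01, 2 with a pseudocount of 1 or a 2-fold threshold and 3 with mean FPKM of at least 1. With sgL1ASP #3 to mock, the number higher was 2, beside 4.38%. It became 4 at pseudocount 0.01 and 1 at pseudocount 1, the FPKM sum, a 2-fold threshold or mean FPKM of at least 1. The number lower was 3, beside 5.18%. It was 4 with the FPKM sum and 1 with a pseudocount of 1, a 2-fold threshold or mean FPKM of at least 1. With sgL1ASP #1 to sgL1ASP #3, the number higher was 1, beside 5.15%. It became 2 at pseudocount 0.01 and 0 at pseudocount 1, a 2-fold threshold or mean FPKM of at least 1. The number lower was 1, beside 4.62%. It was 3 with a pseudocount of 0.01, 2 with the FPKM sum and 0 with a pseudocount of 1 or a 2-fold threshold. Of 48 values of single members under alternatives, 2 changed sign, APOBEC3C and APOBEC3F with sgL1ASP #1 under the FPKM sum, which lowers the ratios of all genes alike.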
